A study of Mus musculus with 4 samples.

Results

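The genes of 7 proteases that sit at the cell surface were followed in alveolar macrophages, which live on the air side of the lung's alveoli, with and without a Cre designed to delete Pparg. They are Adam8, Adam9, Adam10, Adam15, Adam17, Adam19 and Anpep. These genes were chosen by name with earlier results of these data known, and all 7 were among the 18782 genes compared. Each gene was represented by the probe set annotated with that symbol alone and, where there was more than 1, by the one with the highest mean over the arrays. Adult mice on the C57BL/6 background were used. WT mice were PPARg fl/fl, and KO mice were CD11cCre/PPARg fl/fl, so both groups carried the floxed alleles and the KO mice alone carried Cre, driven by the CD11c promoter, which is active in several kinds of mononuclear phagocyte. There were 2 arrays per group, and the cells on each array were pooled from 2 mice. The submitters call the WT cells mature and the KO cells arrested and immature, and the sort gated WT cells as CD11b-low but KO cells as CD11b-high. Genotype and gate therefore cannot be told apart in any value below.

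ADAM proteins are membrane-anchored metalloproteases, many of which cut other membrane proteins close to the membrane and release their outer parts, a process called ectodomain shedding. ADAM17 is the main enzyme that releases tumour necrosis factor from macrophages, and ADAM10 sheds chemokines, Notch receptors and many other proteins. ADAM8, ADAM9, ADAM15 and ADAM19 are related enzymes with narrower or less well defined substrates. Aminopeptidase N, also known as CD13 and encoded by Anpep, is a zinc enzyme of the plasma membrane that removes amino acids from the N-terminal end of peptides and is a marker of myeloid cells.

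All values are log2 expression values made with RMA, on a scale from 0.96 to 12.11 over all probe sets, with a median of 3.14 on each array. Differences are KO minus WT with the standard error (SE) of limma's linear model, and a gene counted as higher or lower when its p-value, adjusted over all 18782 genes, was under 0.05. With so few arrays, precision is limited throughout. Of 6 general macrophage markers, Csf1r was higher in KO (0.84), Fcgr1 (-0.66) and Mertk (-0.48) were lower, and Lyz2, Cd68 and Adgre1 did not pass, with means between 9.51 and 11.5 in both groups. Of 12 alveolar macrophage markers, 5 were lower in KO and 0 higher. The lower ones were Krt79 (-6.19), Fabp1 (-5.96), Cidec (-5.67), Krt19 (-4.93) and Siglecf (-3.27). Siglecf and Itgax, both in this list, are also genes of the sort gate, and the part of the sort in their levels was not tested. Chil3, Plet1 and Atp6v0d2 had means from 10.8 to 11.2 in both groups. The mean log2 level of the list was 9.74 and 9.06 on the WT arrays and 6.75 and 6.92 on the KO arrays. All marker genes named here and below were picked from their lists with values already seen. Pparg differed by -0.06 ± 0.10 (SE; adjusted p = 0.79). Whether its probes fall inside the floxed part is unknown here, and its level is no check of the genotypes.

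Of the 7 surface protease genes, 5 were higher in KO and 0 lower, against 7.41% of all genes tested that were higher and 6.86% that were lower. Since the 7 were chosen with earlier results of these data known, the comparisons with all genes here describe them and are no test. Anpep, Adam8, Adam15, Adam19 and Adam9 passed the test, with differences from 5.19 down to 0.44. Adam10 and Adam17, the most widely studied sheddases, did not pass. In all 7 genes both KO arrays lay above both WT arrays, an arrangement found in 25.3% of all genes. The median difference of the 7 was 0.90, beside -0.01 over all genes. With any 1 array left out, between 3 and 4 of them passed.

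**Figure D1:**
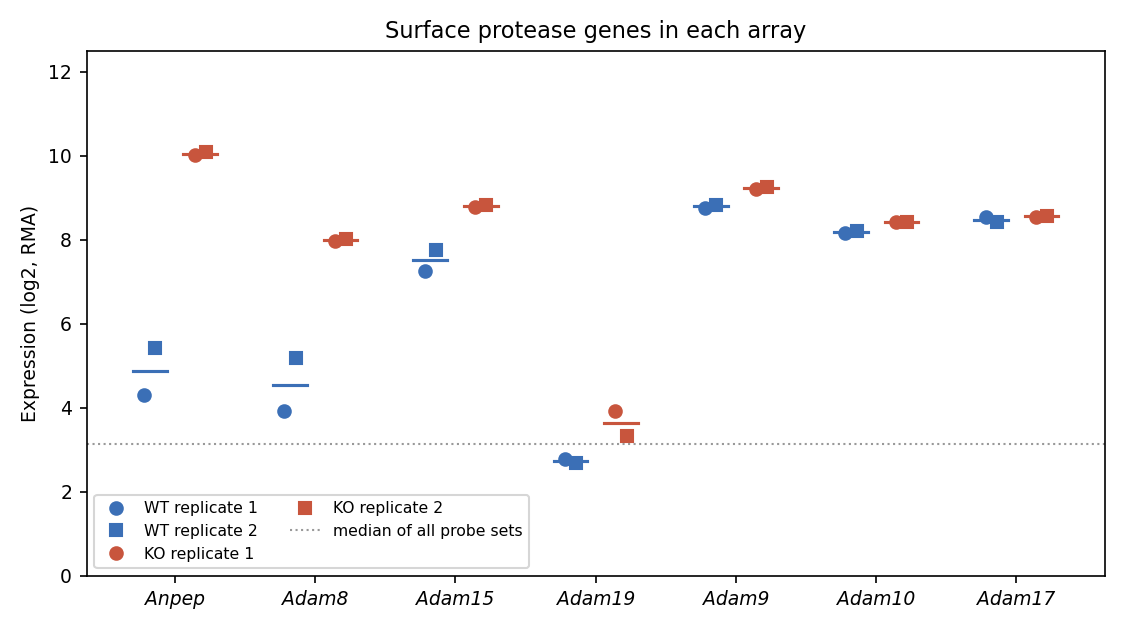
Log2 expression (RMA) of each of the 7 genes on each of the 4 arrays, with WT in blue, KO in red, replicate 1 as circles and replicate 2 as squares; short lines are group means and the dotted line is the median of all probe sets. The WT arrays of Anpep (4.30 and 5.42) lie far below its KO arrays (10.02 and 10.08), whereas the values of Adam17 lie between 8.43 and 8.57 on all arrays. Heights of different genes are not comparable, since probe sets differ in their response.

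Anpep had the largest change. It read 4.30 and 5.42 on the WT arrays and 10.02 and 10.08 on the KO arrays. The KO arrays were high and close together, and the WT arrays were low and 1.12 apart. The means were 4.86 ± 0.79 (SD, n = 2) for WT and 10.05 ± 0.04 (SD, n = 2) for KO, a difference of 5.19 ± 0.33 (SE; limma adjusted p = 3.38e-04) or 36.4-fold, with a 95% interval from 4.38 to 6.00. It ranked 10 among all genes by the size of the increase. The difference was 4.62 without WT replicate 1 and 5.75 without WT replicate 2, and the gene passed the test when any 1 array was left out.

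Adam8, which encodes a metalloprotease of granulocytes, monocytes and activated macrophages, read 3.91 and 5.17 in WT and 7.98 and 8.02 in KO. The groups were again far apart, and the spread was almost entirely between the WT arrays. The means were 4.54 ± 0.89 (SD, n = 2) and 8.002 ± 0.030 (SD, n = 2), and the difference of 3.46 ± 0.37 (SE; limma adjusted p = 0.00214) amounts to 11-fold, with a 95% interval from 2.56 to 4.36. It was the gene with rank 58 by increase. The difference ran from 2.83 without WT replicate 1 to 4.09 without WT replicate 2, and Adam8 passed with any 1 array left out.

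Adam15, whose product carries a protease domain and a disintegrin domain that can bind integrins, was already well above the array median in WT. Its arrays read 7.26 and 7.76 in WT and 8.79 and 8.83 in KO. The means of 7.51 ± 0.35 (SD, n = 2) and 8.81 ± 0.03 (SD, n = 2) differed by 1.30 ± 0.17 (SE; adjusted p = 0.00464), or 2.46-fold. A second Adam15 probe set, dimmer and not used in the test by gene, read 5.34 and 5.77 in WT and 7.05 and 7.09 in KO, a difference of 1.52 ± 0.16 (SE) with an adjusted p of 0.00443 over all probe sets. Both probe sets thus gave the same order of the arrays, with WT replicate 1 lowest. Adam15 passed with any 1 array left out, and its adjusted p rose to 0.0439 without KO replicate 2.

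Adam9, which encodes a broadly expressed metalloprotease, was bright in both groups and changed little. It read 8.75 and 8.84 in WT and 9.21 and 9.26 in KO, so that the groups were separate and the arrays within each group close. The difference of 0.44 ± 0.10 (SE; adjusted p = 0.031) is 1.36-fold, and 15.7% of all genes differed by as much or more in either direction. The call was lost whichever array was left out, with adjusted p-values from 0.0661 to 0.145, and the difference then ran from 0.40 to 0.49.

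Adam19, encoding a metalloprotease best known for its roles in heart development and in the processing of neuregulins, lay near the array median. It read 2.77 and 2.68 in WT, below that median, and 3.92 and 3.33 in KO. Here the spread was between the KO arrays. The means were 2.72 ± 0.07 (SD, n = 2) and 3.63 ± 0.42 (SD, n = 2), and the difference was 0.90 ± 0.20 (SE; adjusted p = 0.0292), or 1.87-fold. Values this low may be compressed, so the size of the fold change is uncertain. The difference was 0.60 without KO replicate 1 (adjusted p = 0.0644) and 1.20 without KO replicate 2 (adjusted p = 0.0105), and the gene did not pass without WT replicate 1 (adjusted p = 0.074) or WT replicate 2 (adjusted p = 0.0849).

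Adam10 read 8.16 and 8.22 in WT and 8.42 and 8.43 in KO. The KO arrays were higher by a narrow margin, and the difference of 0.24 ± 0.09 (SE) did not pass the test (adjusted p = 0.174), with a 95% interval from 0.01 to 0.47. Adam17, the gene of the enzyme that sheds tumour necrosis factor, read 8.53 and 8.43 in WT and 8.55 and 8.57 in KO. Its difference was 0.08 ± 0.10 (SE; adjusted p = 0.676), and the 95% interval from -0.16 to 0.32 holds changes of either sign. Another probe set matches both Adam17 and its neighbour Iah1. It read 5.93 and 6.03 in WT and 5.95 and 5.83 in KO, with overlapping groups and a difference of -0.09 ± 0.10 (SE), and cannot be assigned to either gene. Adam9, Adam10 and Adam17 read at least 8.16 on every array, against an array median of 3.14.

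**Figure D2:**
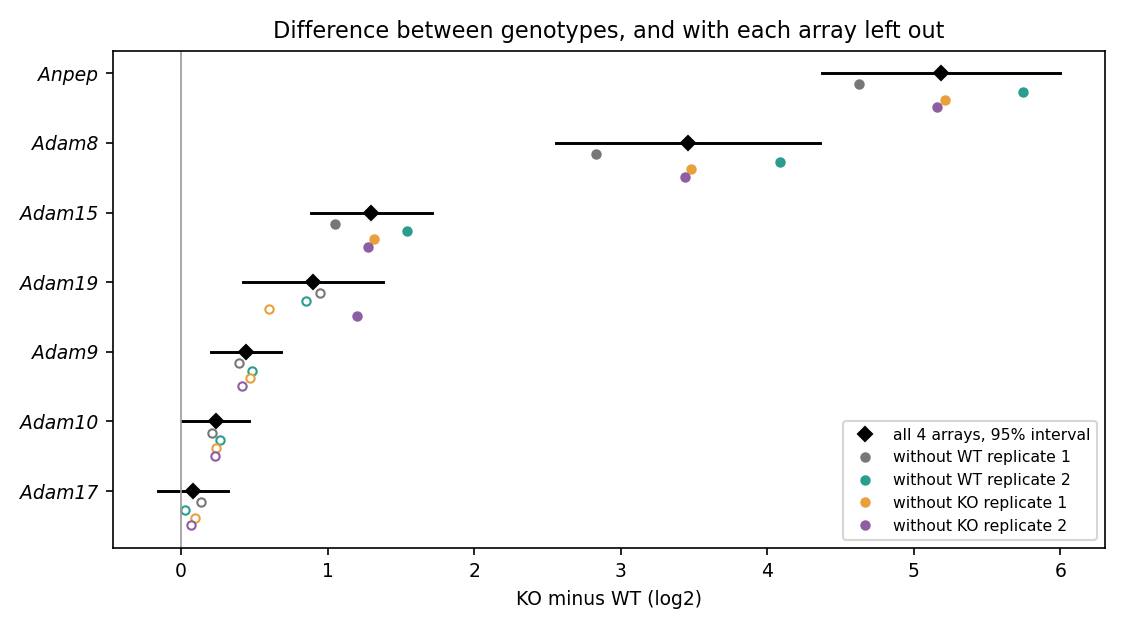
KO minus WT on the log2 scale for each gene, as black diamonds with 95% intervals from limma on all 4 arrays, and as coloured circles with 1 array left out, filled where the adjusted p stayed under 0.05 and open where it did not. Anpep, Adam8 and Adam15 have filled circles throughout, Adam19 only without KO replicate 2, and Adam9, Adam10 and Adam17 have none.

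**Figure D3:**
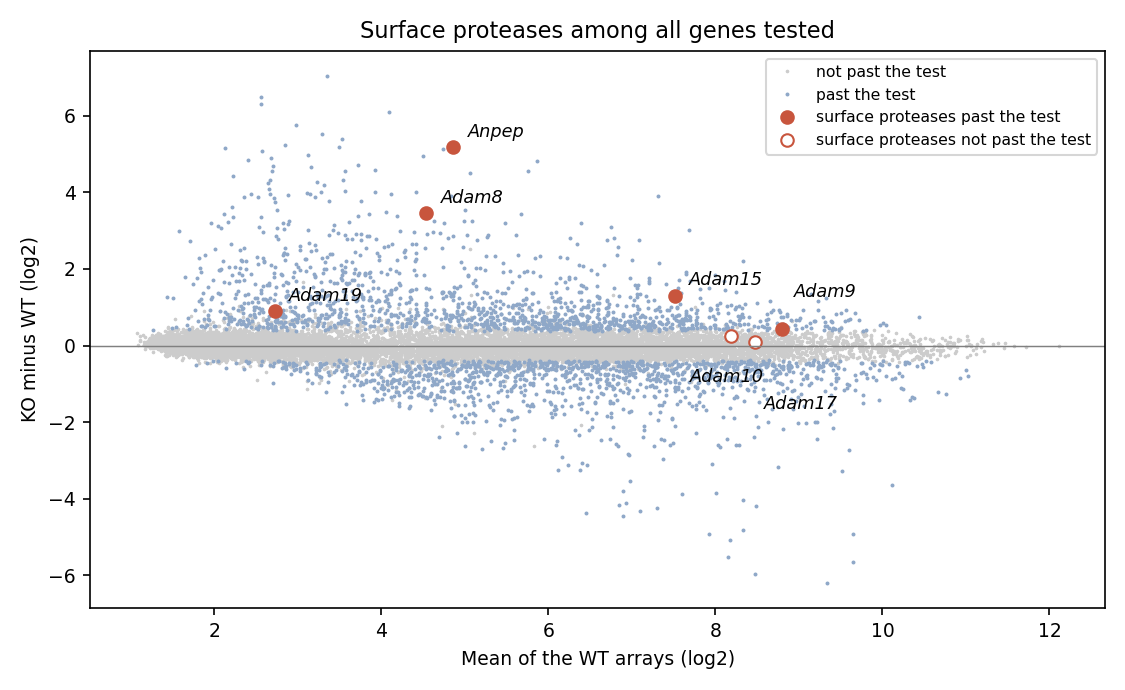
KO minus WT against the mean of the WT arrays, both on the log2 scale, for all 18782 genes, with grey points not past the test, blue points past it and the 7 surface protease genes in red, open where not past. Anpep and Adam8 stand in the upper edge of the genes of similar WT level, at 5.19 and 3.46, and the bright genes Adam9, Adam10 and Adam17 lie near 0.

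The WT arrays were not alike for the genes that changed most. WT replicate 2 read higher than WT replicate 1 by 1.26 in Adam8, 1.12 in Anpep and 0.50 in Adam15. A gap of the size seen in Adam8 or larger occurred in 0.303% of all genes, and of the size seen in Anpep in 0.431%. The KO arrays differed by no more than 0.06 in these 3 genes. The same array stood toward KO more widely, since WT replicate 2 lay above WT replicate 1 in 71.1% of the genes called higher and below it in 66.9% of those called lower, while in the genes not past the test it lay on the side of KO in 52.9%. The mean log2 level of the 12 alveolar macrophage markers was 9.74 in WT replicate 1 and 9.06 in WT replicate 2. Marco (7.22 and 4.43), Fabp4 (7.57 and 5.21) and Krt79 (10.18 and 8.48) were lower on WT replicate 2, whereas Car4 (10.43 and 10.5) and Chil3 (11.07 and 11.19) were not. The mean of the 8 epithelial markers was 4.47 in WT replicate 1 and 3.88 in WT replicate 2, beside 3.97 and 3.92 on the KO arrays. Scgb1a1 read 6.89 and 4.26 in WT and 6.48 and 6.63 in KO, so for this gene WT replicate 2 lay farther from KO. Sftpc read 4.27 and 2.99 in WT and 3.64 and 3.22 in KO. The part of this array's composition in the results was not tested. Without it the differences of Anpep, Adam8 and Adam15 were 5.75, 4.09 and 1.55. Leaving out WT replicate 1 instead gave 4.62, 2.83 and 1.05.

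The arrays measured bulk RNA of sorted cells, in which more RNA per cell and more cells of a type cannot be told apart. Of 11 measured interstitial macrophage markers 7 were higher and 1 lower. The mean log2 level of the list was 4.05 and 4.11 on the WT arrays and 6.01 and 5.84 on the KO arrays. Its largest differences were those of C1qb (6.48), C1qc (4.84), C1qa (3.77) and Cx3cr1 (2.91), the last also in the monocyte list. Cd163 and Folr2 lay below the array median of 3.14 on every array, and the lower gene was Mrc1 (-0.44). Of 8 monocyte markers 4 were higher and 2 lower, with list means of 5.87 and 5.92 in WT and 6.27 and 6.21 in KO. Of 11 neutrophil markers, which bear on Adam8, 2 were higher and 1 lower, with list means of 3.41 and 3.53 against 4.03 and 3.88 and summed levels, as log2, of 8.20 and 8.88 against 10.09 and 10.12. The higher ones were Mmp8, which encodes a collagenase of neutrophils (2.76, adjusted p = 0.00712), and S100a8 (1.92, adjusted p = 0.00126). The lower one was Csf3r (-1.54). Mmp8 alone read 9.82 and 9.88 on the KO arrays, so most of the summed level there came from this gene. The granule protein genes Elane, Mpo, Camp, Ltf and Ngp were all below the array median of 3.14 on every array. Of 7 eosinophil markers 1 was higher, Rnase2a, while the defining genes Epx, Prg2, Ccr3 and Il5ra read at most 2.02. Of 8 dendritic cell markers 1 was higher and 1 lower, with list means of 3.41 and 3.34 in WT and 3.50 and 3.85 in KO. Of 7 lymphocyte markers and of 6 endothelial and fibroblast markers 0 passed the test, and of 8 epithelial markers 2 were lower and 0 higher. The part of interstitial macrophages or monocytes in the increases of Anpep and Adam8 was not tested.

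Sequences upstream of the genes are shown for the 3 members with the largest changes, which rose together in KO. Each window holds the 250 bases before the transcript start listed by RefSeq (GRCm38.p6), written 5′ to 3′ on the strand of the gene. Capitals mark GC boxes (GGGCGG) and C/EBP motifs (TTGCNNAA), on either strand. All 3 genes lie on the minus strand, Anpep at chr7:79821803-79848210, Adam8 at chr7:139978932-139995207 and Adam15 at chr3:89339640-89350028. The Anpep window is chr7:79848211-79848460, that of Adam8 is chr7:139992563-139992812, inside the span of the gene, and that of Adam15 is chr3:89350029-89350278.
Anpep: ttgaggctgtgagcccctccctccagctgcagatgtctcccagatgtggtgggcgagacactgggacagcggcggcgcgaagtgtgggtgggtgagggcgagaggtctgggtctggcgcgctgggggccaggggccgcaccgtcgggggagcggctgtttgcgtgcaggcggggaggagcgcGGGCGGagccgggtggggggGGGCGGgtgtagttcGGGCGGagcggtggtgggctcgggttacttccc
Adam8: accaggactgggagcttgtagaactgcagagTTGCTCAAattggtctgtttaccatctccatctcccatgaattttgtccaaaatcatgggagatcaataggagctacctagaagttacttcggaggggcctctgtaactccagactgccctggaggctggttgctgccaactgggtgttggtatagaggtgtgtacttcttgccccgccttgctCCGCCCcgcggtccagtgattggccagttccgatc
Adam15: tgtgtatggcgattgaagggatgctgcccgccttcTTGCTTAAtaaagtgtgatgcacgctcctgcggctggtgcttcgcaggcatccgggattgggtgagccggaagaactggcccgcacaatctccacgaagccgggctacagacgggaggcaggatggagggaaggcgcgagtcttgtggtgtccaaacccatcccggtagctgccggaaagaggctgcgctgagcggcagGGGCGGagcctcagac

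The Anpep window had 72.8% G and C and 3 GC boxes, all within 68 bases of the start. The windows of Adam8 and Adam15 held 1 GC box and 1 C/EBP motif each. GC boxes were found in 32.7% of 32851 windows of this length and the C/EBP motif in 9.56%. The DR1 element, to which PPARγ binds with its partner RXR and which was searched as a pair of AGGTCA half-sites in 1 direction with 1 base between them, was found in 0 of the 8 windows of the 6 genes with an entry, and in 0.0335% of all windows. Its half-site AGGTCA was present once, in 1 of the 3 windows of Adam19, against 14.0% of all windows, and the same window held the PU.1 motif GAGGAAG (10.6% of all windows). An AP-1 motif, TGANTCA, lay in another Adam19 window (6.75% of all windows). The windows of Adam10 and Adam17, which did not pass the test, held 3 and 1 GC boxes. All motifs were searched on both strands, a half-site also lies within DR1, and a match or its absence describes only these letters in this window.

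Of 7 other ADAM genes examined, most lay near the bottom of the scale. In this list 1 was higher and 1 lower, beside 7.41% higher and 6.86% lower among all genes. The 5 that did not pass lay below the array median in both groups. Adam33, encoding a metalloprotease linked to asthma susceptibility, read 4.72 and 5.48 in WT and 6.71 and 6.79 in KO, a difference of 1.65 ± 0.24 (SE; adjusted p = 0.00653). As in Anpep and Adam8, WT replicate 2 was the higher of the WT arrays. The call was lost without KO replicate 1 (adjusted p = 0.0522) or KO replicate 2 (adjusted p = 0.0568). Adam22, whose product lacks protease activity and acts as a receptor in neurons, read 6.46 and 6.50 in WT and 4.91 and 5.39 in KO, a fall of 1.33 ± 0.17 (SE; adjusted p = 0.00395).

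Sheddases work with partner proteins and are held back by inhibitors. TspanC8 tetraspanins carry ADAM10 to the cell surface, iRhoms do the same for ADAM17, furin-type enzymes cut off the inhibitory propeptide, and TIMPs block the active enzymes. Of 15 measured genes of this kind 4 passed as higher and 1 as lower, beside 7.41% higher and 6.86% lower among all genes. The other 10 did not pass, and the median difference of the list was 0.22. Timp2 read 7.53 and 8.48 in WT and 9.83 and 9.87 in KO, a difference of 1.85 ± 0.29 (SE; adjusted p = 0.00877). Timp1 read 2.98 on both WT arrays and 5.29 and 4.01 on the KO arrays, a difference of 1.67 ± 0.38 (SE; adjusted p = 0.0331). The Timp2 call was lost without KO replicate 1 (adjusted p = 0.0658) or KO replicate 2 (adjusted p = 0.068). The Timp1 call was lost without WT replicate 1 (adjusted p = 0.0916) or WT replicate 2 (adjusted p = 0.0789), and its difference moved to 1.03 when KO replicate 1 was left out and to 2.31 when KO replicate 2 was. Both of these inhibitor genes read higher on each KO array than on either WT array. The TspanC8 genes Tspan17 (0.81 ± 0.12, adjusted p = 0.00828) and Tspan5 (0.55 ± 0.10, adjusted p = 0.0155) were higher. With 1 array left out, their differences ran from 0.67 to 0.95 and from 0.49 to 0.62. The Tspan17 call was lost without KO replicate 1 or KO replicate 2. The Tspan5 call was lost without WT replicate 1, KO replicate 1 or KO replicate 2. The other TspanC8 genes of the list did not pass, with differences of -0.36 (Tspan14), -0.28 (Tspan10), -0.09 (Tspan15) and 0.55 (Tspan33). Frmd8, whose product stabilises the complex of iRhom and ADAM17, was lower (-0.59 ± 0.12, adjusted p = 0.0235).

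The iRhom genes, chosen after their values were seen, differed by 0.32 ± 0.10 (Rhbdf2, adjusted p = 0.0987) and -0.41 ± 0.11 (Rhbdf1, adjusted p = 0.0666), and neither passed. Timp3, the gene of the inhibitor most active on ADAM17, likewise chosen later, differed by -0.45 ± 0.16 (adjusted p = 0.142). Leaving out KO replicate 1 or KO replicate 2 left 1 higher gene in this list, and leaving out WT replicate 1 left 2. Frmd8 did not pass without KO replicate 1 (adjusted p = 0.12) or WT replicate 1 (adjusted p = 0.101), nor when all of its probe sets were averaged (adjusted p = 0.0578).

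Genes of proteins that sheddases are known to cut went both ways. Among 26 measured substrate genes, 7 passed as higher and 4 as lower, beside 7.41% higher and 6.86% lower among all genes. The other 15 did not pass, and the median difference of the list was 0.03. Hbegf, the gene of a membrane-bound growth factor of the EGF family, read 2.56 and 2.94 in WT and 6.56 and 6.00 in KO, a difference of 3.53 ± 0.22 (SE; adjusted p = 2.98e-04). Cxcl16, encoding a membrane-bound chemokine and scavenger receptor shed by ADAM10, read 4.31 and 4.69 in WT and 7.97 and 8.04 in KO, a difference of 3.50 ± 0.15 (SE; adjusted p = 7.93e-05). In both genes the groups were far apart on the scale. Trem2, a lipid-sensing receptor gene, differed by 2.57 ± 0.09 (adjusted p = 5.21e-05), and Csf1r, the gene of the macrophage growth factor receptor, by 0.84 ± 0.11 (adjusted p = 0.00478).

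Cx3cl1, which encodes fractalkine, the other membrane-bound chemokine shed by ADAM10, moved the opposite way to Cxcl16. It read 6.51 and 6.13 in WT and 4.05 and 4.17 in KO, a fall of 2.21 ± 0.15 (SE; adjusted p = 3.84e-04). The other 3 lower genes fell by less: Mertk, the gene of a receptor for apoptotic cells, by 0.48 ± 0.11 (adjusted p = 0.0351), Notch2 by 0.44 ± 0.09 (adjusted p = 0.0272) and Axl by 0.42 ± 0.09 (adjusted p = 0.033). None of these 3 passed with any 1 array left out, so that 1 lower gene then remained in the count, and 4 higher genes remained in the count when KO replicate 1 was left out. Tnf, chosen after its values were seen as the classical substrate of ADAM17, read 9.19 and 8.66 in WT and 9.62 and 9.51 in KO, a difference of 0.64 ± 0.18 that did not pass (adjusted p = 0.0677). The tumour necrosis factor receptor genes were also chosen later. Tnfrsf1a differed by -0.09 ± 0.10 (adjusted p = 0.641) and Tnfrsf1b by 0.45 ± 0.11 (adjusted p = 0.0471). The Tnfrsf1b call was lost without WT replicate 1, KO replicate 1 or KO replicate 2. With 1 array left out, its difference ran from 0.34 to 0.56.

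Among other peptidases of the cell surface, 2 of 14 measured genes were higher and 0 lower, beside 7.41% and 6.86% of all genes. Cpd, the gene of carboxypeptidase D, read 7.69 and 7.86 in WT and 8.57 and 8.68 in KO, a difference of 0.85 ± 0.11 (SE; adjusted p = 0.00443). Ace, the gene of the angiotensin-converting enzyme, differed by 0.96 ± 0.17 (SE; adjusted p = 0.0152), a call lost when KO replicate 1 (adjusted p = 0.101) or KO replicate 2 (adjusted p = 0.0779) was left out. Of the 14, 10 lay below the array median in both groups. These included Enpep, the gene of aminopeptidase A (2.26 in WT and 2.15 in KO), and Mme, the gene of neprilysin (1.93 and 1.85), which encode other ectopeptidases and were named after their values were seen.

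Aminopeptidase genes of the cell interior passed in both directions. Of 12 genes 3 passed as lower and 1 as higher, beside 6.86% lower and 7.41% higher among all genes. The other 8 did not pass, and the median difference of the list was -0.21. Lta4h, encoding the leukotriene A4 hydrolase, which is also an aminopeptidase, fell by 0.78 ± 0.16 (SE; adjusted p = 0.022), Rnpep, the gene of aminopeptidase B, by 0.61 ± 0.10 (adjusted p = 0.00957) and Xpnpep1 by 0.54 ± 0.10 (adjusted p = 0.0156). Metap1, one of the methionine aminopeptidases that trim new proteins, was higher by 0.64 ± 0.12 (adjusted p = 0.016). Leaving out KO replicate 1 left 1 lower gene, and leaving out KO replicate 2 left 0. Metap1 did not pass without KO replicate 1 (adjusted p = 0.0908) or WT replicate 1 (adjusted p = 0.0706).

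**Figure D4:**
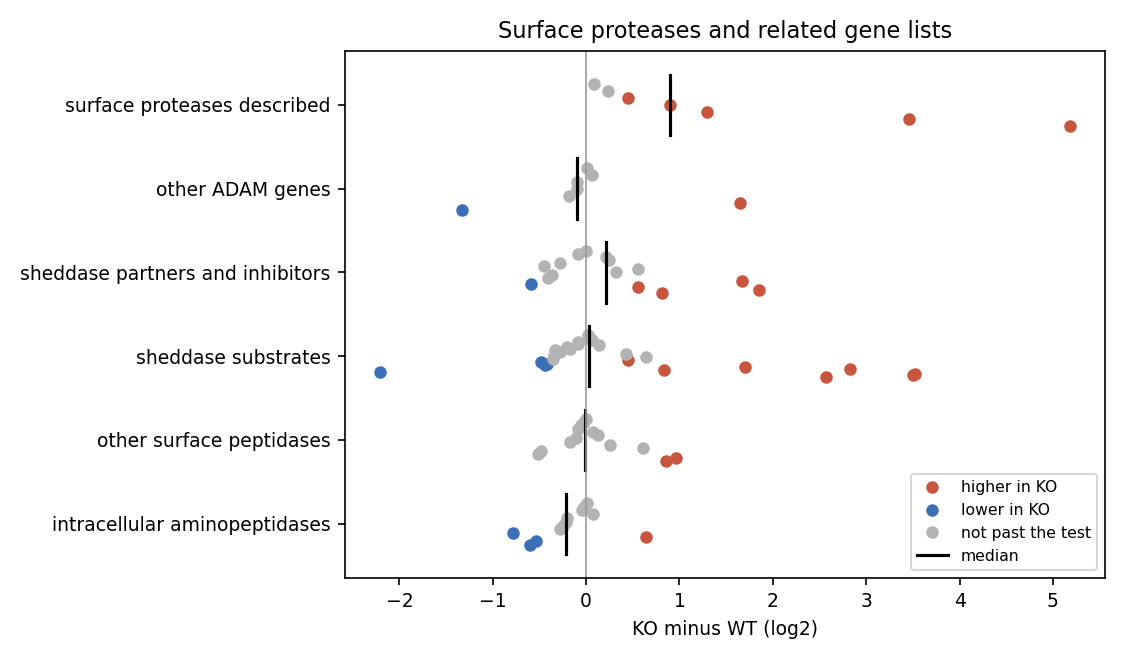
KO minus WT on the log2 scale for the 7 surface protease genes and for each measured gene of 5 related lists, 1 point per gene, red where higher in KO, blue where lower and grey where not past the test, with black bars at the list medians. The median is 0.90 for the 7 genes and lies between -0.21 and 0.22 for the related lists. Members and lists were chosen with earlier results of these data known, so the contrast is no test.

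The genes whose 4 values were most like those of a member, after each gene's own mean was taken off, were ranked by Euclidean distance over the 4 arrays. For Anpep they were Ccn3 (distance 0.13), a matricellular protein gene, Mfge8 (0.31), whose product bridges phagocytes to apoptotic cells, and the fatty acid elongase gene Elovl7 (0.44). Ccn3 read 1.98 and 3.17 in WT and 7.61 and 7.68 in KO, with WT replicate 2 above WT replicate 1 as in Anpep. For Adam8 they were Sash1 (0.19), Klk1b11 (0.32) and the epoxide hydrolase gene Ephx1 (0.32), and for Adam15 the transcription factor gene Egr3 (0.07), the NF-kB inhibitor gene Tnfaip3 (0.12) and Lrba (0.12). For Adam19 they were the platelet factor gene Pf4 (0.12), Pxdc1 (0.12) and Neo1 (0.13), which share a KO replicate 1 above KO replicate 2, and for Adam9 Dock9 (0.01), Ccny (0.02) and Crlf2 (0.02). With 4 arrays in 2 groups such likeness is set mostly by the size of the difference and the gap within a group.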

How the data were processed

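Per the submitters' processing notes, the authors made the deposited log2 values with RMA in R 2.15.2. RMA subtracts background, gives all arrays 1 distribution and summarises each probe set, so a change shared by most transcripts would not be seen. The RMA settings were not stated. The table held 28371 probe sets. The platform annotation gave 21158 of them 1 gene symbol, 1881 several and 5332 none. Several-gene and unnamed probe sets were not used, which left 18782 genes with no intensity filter.

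The genotypes were tested against each other in limma 3.58.1 under R 4.3.3 (lmFit and eBayes, two-sided, Benjamini-Hochberg adjustment over all genes). The procedure was also run on simulated data with known changes and independent noise for each gene. Those data held no shift shared by many genes of 1 array, so they say nothing about such a shift. Members and lists were chosen with earlier results of these data known. Genes named were all members, up to 4 genes past the test in each direction of each list by p, Pparg, the genes of the gate, and the 3 genes nearest to each member past the test; any others, markers included, were picked with values already seen. Of the gate genes, Itgam (CD11b) was higher in KO (5.76), Siglecf (-3.27) and Ptprc (-0.52) were lower, and Itgax differed by 0.24 and did not pass. Alternatives were an intensity trend, dim genes left out, repeated quantile normalization, averaged probe sets, all probe sets tested, the replicate number as a block and each array left out. Promoter windows and coordinates come from RefSeq on GRCm38.p6, and 6 of 7 members had a window.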

Additional observations from a re-analysis of the deposited data

How the results depend on the processing

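Each of the 7 genes kept its direction under every alternative run, and Anpep, Adam8 and Adam15 also stayed past the test in all of them. Adam9 (0.44) had an adjusted p of 0.0507 with the replicate number as a block, and Adam19 (0.90) of 0.0514 when all probe sets were tested; the cause was not tested. Each of these settings left 4 members past the test. With 1 array left out, the differences ran from 4.62 to 5.75 for Anpep, 2.83 to 4.09 for Adam8, 1.05 to 1.55 for Adam15, 0.60 to 1.20 for Adam19, 0.40 to 0.49 for Adam9, 0.21 to 0.27 for Adam10 and 0.03 to 0.13 for Adam17. The lone array of a group is then assumed to vary like the other group. Members higher then numbered from 3 to 4, with 0 lower, and all genes past the test from 726 to 1227 higher and from 647 to 1057 lower, against 1391 and 1289 on all arrays.

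The groups share replicate numbers, but nothing in the labels says that a number marks a shared batch, and the within-group deviations of same-numbered arrays correlated at -0.017 across genes. With the replicate block, 1309 genes were higher and 1168 lower, the calls of Notch2, Axl, Mertk and Tnfrsf1b were lost, and 1 substrate gene was lower. With an intensity trend 8 substrate genes were lower. Mertk (adjusted p = 0.0513), Timp1 (0.0598) and Tnfrsf1b (0.0666) did not pass when all probe sets were tested. No label or column gives an array date, so batch was not tested.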
